A study of Drosophila melanogaster with 4 samples.

Results

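The genes of chromosome 4, the small dot chromosome of *Drosophila*, were read on arrays of testis RNA from *nsr* mutant and WT males. The set holds 38 named genes of this chromosome, chosen by name and location and covering receptors, growth factor ligands, transcription factors and synaptic, muscle and repair proteins. Of these, 31 had a probe set that the array annotation gives to that gene alone, among 11983 genes on the array with such a probe set. *PlexA*, *PIP4K*, *pan*, *lgs*, *pho*, *CaMKII* and *Arf102F* had none and were not analysed here. *Thd1* was found under its current name *Tdg*. The mutant flies were homozygous for a null allele of *nsr* (*CG3875*), a deletion from just after the transcription start into the 3′ UTR. WT flies were a line that kept the intact gene after the same targeting crosses, so both genotypes had passed through them. Testes came from flies 0 to 2 days old, with the seminal vesicles removed. Each genotype was represented by 2 GeneChip *Drosophila* Genome 2.0 arrays, which the paper describes as run in duplicate. They are called *nsr* mutant 1 and *nsr* mutant 2 for the mutant and WT 1 and WT 2 for WT. No source names separate groups of flies for them. The p-values therefore cover the spread between these arrays only, which may be technical.

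Chromosome 4 is mostly packed as heterochromatin, yet its genes are actively transcribed. The RNA-binding protein encoded by *Pof* coats the chromosome and binds its transcripts, and the methyltransferase *egg* and the heterochromatin protein HP1a mark and bind its chromatin. Many of its genes are best known from the nervous system, the eye or muscle rather than from the testis, and for this reason the level of each gene over background is given first. Whole testes were measured, in which fewer cells of a type and less RNA per cell cannot be told apart.

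Values are linear intensities as deposited, 1 for each probe set and array, compared with limma on log2(intensity + 16) and adjusted over 18769 probe sets. The added 16 makes the fold change of a dim gene smaller than its ratio of intensities. Background was set on each array at the highest of 67 negative control probe sets. This was 5.88 on *nsr* mutant 2, against 8.8 on *nsr* mutant 1, 8.92 on WT 1 and 8.66 on WT 2. The targeted gene *nsr* had intensities of 23.2 and 27.6 in the mutant and of 549 and 554 in WT (log2 fold change -3.78, standard error 0.10, adjusted p = 0.00837 from limma). No other probe set passed the threshold of 0.05 on the adjusted p, so that 0.00533% of those tested were called. Array medians were 12.1 and 14.1 in the mutant and 13.5 and 15.7 in WT, and all genes together had a median log2 fold change of -0.06. Of 11 germline genes of the testis with a probe set, 10 exceeded the negative controls on every array, with summed intensities of 10044 and 11430 in the mutant and of 10758 and 11645 in WT. *vas* was below them on every array.

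None of the 31 chromosome 4 genes passed the test, and 3 had an unadjusted p under 0.05 from limma, all lower in the mutant. Such a p was found for 9.68% of the 31 genes, 8.2% of all genes and 7.13% of all probe sets. The log2 fold change was below 0 for 26 of the 31 genes (83.9%, against 65.2% of all genes). With array medians centred it was below 0 for 22 (71%, against 47% of all genes). Its median was -0.15 (quartiles -0.32 and -0.06) as deposited, with a range of -0.93 to 0.13. In 12 of the 31 (38.7%) the mutant values were both below the WT values, against 26.4% of all genes, and in none did both lie above, against 9.15%. Signals of 15 genes exceeded the negative controls on every array, those of 7 on some arrays, and those of 9 on none, 4 of the 12 among the last. For the 15 genes with a mean above the median level of all probe sets the log2 fold change was below 0 in each, with a median of -0.33. Over all genes above that level 68.2% were below 0, and the median was -0.08.

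**Figure D1:**
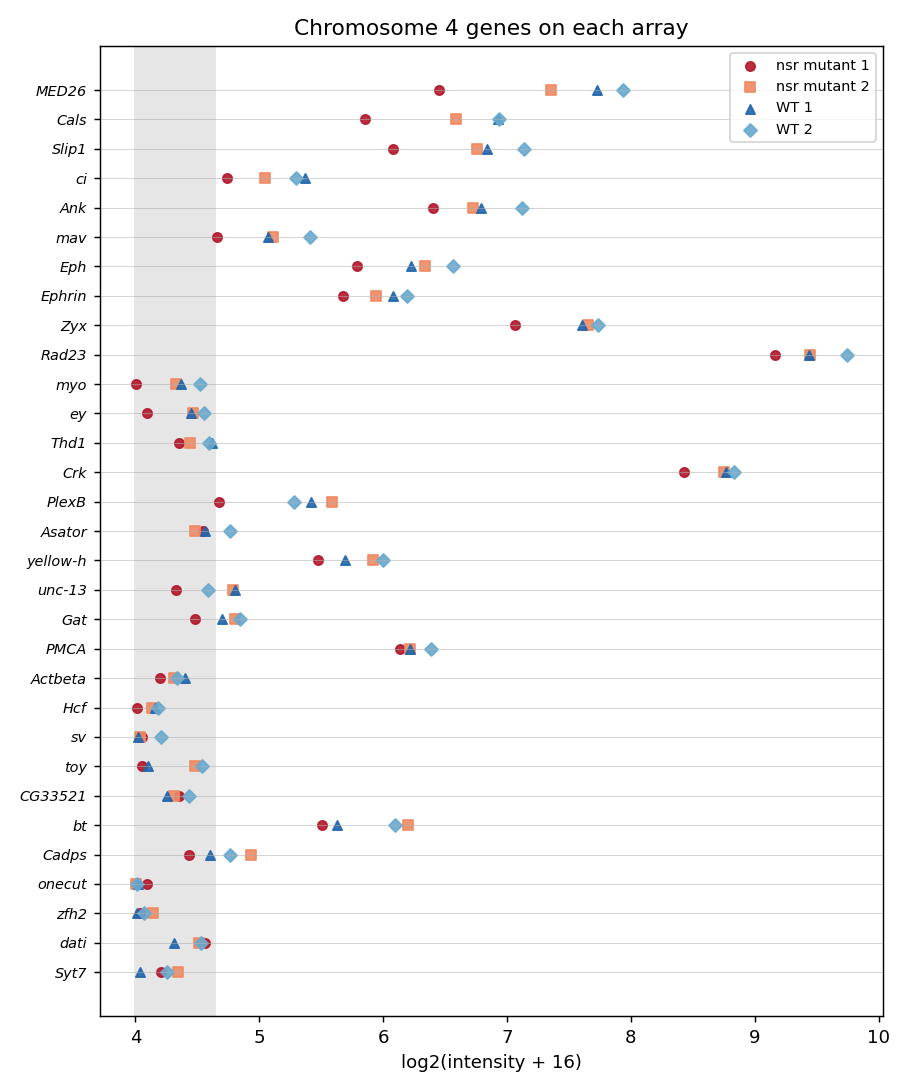
Intensity of the 31 chromosome 4 genes on each array, as log2(intensity + 16), ordered by log2 fold change between group means, lowest at the top. Each symbol is 1 array, and the grey band covers intensities up to the highest negative control of any array (8.92). *nsr* mutant 1 holds the lowest value for 24 of the 31 genes.

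The 2 mutant arrays did not contribute alike. *nsr* mutant 1 was below the mean of WT for 27 of the 31 genes, against 8765 of all 11983 genes, with a median log2 difference of -0.37. It was the lowest of the 4 arrays for 24 of the 31 (77.4%, against 46.6% of all genes). With array medians centred it was the lowest for 19 (61.3%, against 26.8%), and with quantile normalization for 23 (74.2%, against 26.8%). *nsr* mutant 2 was below the mean of WT for 21 of the 31, against 6277 of the 11983, with a median of -0.05. The gap between the mutant arrays had a median of -0.32 over these genes and of -0.11 over all genes. WT 1 and WT 2 were -0.16 and -0.14 apart over the same sets. *nsr* mutant 1 lay below both WT arrays for 25 of the 31 genes (80.6%, against 55.0% of all genes), and *nsr* mutant 2 for 13 (41.9%, against 34.1%). A single array has no spread of its own, so these differences are a description with no test.

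**Figure D2:**
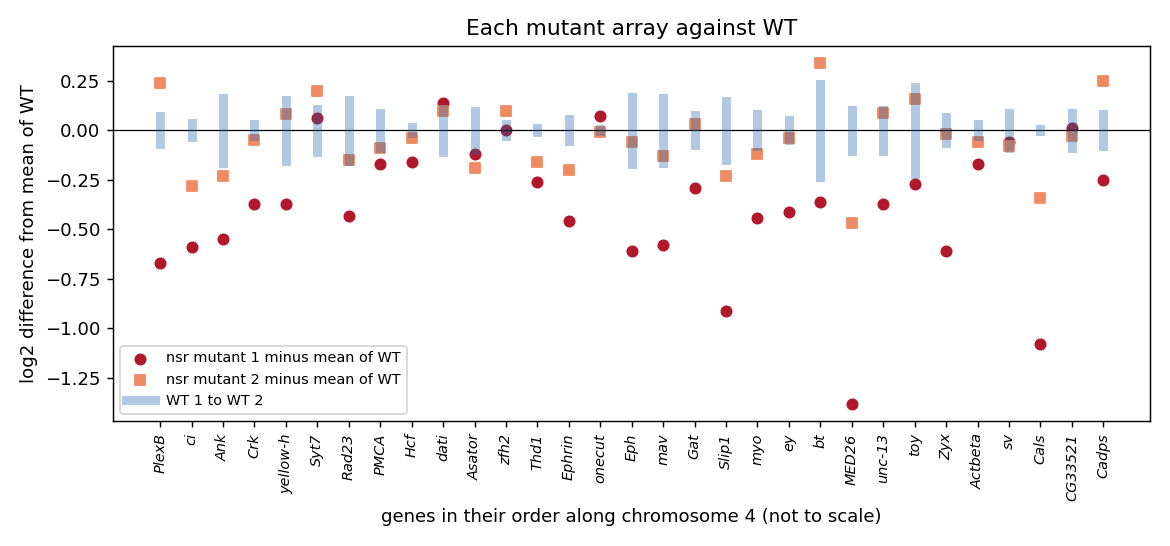
Log2 difference of each mutant array from the mean of WT for the 31 genes, in their order along chromosome 4 and not to scale. Circles are *nsr* mutant 1, squares *nsr* mutant 2, and the blue bars span the values of WT 1 and WT 2. *MED26* and *Cals* have the lowest circles, at -1.38 and -1.08, and *bt* the highest square, at 0.34.

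Transcription factors and cofactors held the gene with the largest difference. *MED26*, a subunit of the Mediator complex that links activators to RNA polymerase II, had intensities of 71.7 and 148 in the mutant and of 196 and 229 in WT. Both mutant arrays were lower, and they differed from each other by almost as much as the genotypes did. Its log2 fold change between group means was -0.93 (standard error 0.31, adjusted p = 0.690 from limma). *MED26* was called with array medians centred (adjusted p = 0.0121 from limma, 0.591% of probe sets called) and when probe sets at or below the median level were left out (adjusted p = 0.000202 from limma, 1.30% called), and in no other setting tried. Without *nsr* mutant 1 its log2 fold change was -0.47.

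*ci*, the transcription factor at the end of the Hedgehog pathway, had 10.7 and 17.1 in the mutant and 25.3 and 23.3 in WT. The groups did not overlap, and both WT arrays were close to each other. The difference was -0.44 on the log2 scale (standard error 0.14, adjusted p = 0.690 from limma). *ey* and *toy*, the Pax6 genes of eye development, were above the negative controls on 1 array each, *nsr* mutant 2 in both cases. That array has the lowest background (5.88), and both genes were brighter on WT 2. *ey* had 1.11 and 6.04 in the mutant and 5.89 and 7.52 in WT, and *toy* 0.59 and 6.34 against 1.14 and 7.21. For *toy* the first array of each genotype was the lower, at intensities near background that give no order. *dati*, a zinc finger gene, was above the controls only on *nsr* mutant 2, again by its lower background. It had 6.91 there, with 7.59 on *nsr* mutant 1 and 3.87 and 7.07 in WT. *Hcf*, *sv*, *zfh2* and *onecut* were not above the controls on any array, with log2 fold changes of -0.10, -0.07, 0.05 and 0.03, from values at background.

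Among genes of the synapse and of calcium handling, *Cals*, which encodes the cadherin-like membrane protein calsyntenin, had 41.8 and 80.4 in the mutant and 106 and 107 in WT. The WT arrays were nearly equal and both mutant arrays lay below them, *nsr* mutant 1 by more than *nsr* mutant 2. The difference was -0.71 on the log2 scale (standard error 0.25, adjusted p = 0.690 from limma). *Cals* was called only when probe sets at or below the median level were left out (adjusted p = 0.0140 from limma), and without *nsr* mutant 1 its log2 fold change was -0.34. *PMCA*, the calcium pump of the plasma membrane, had 54.2 and 58.4 against 58.3 and 67.9, where the groups overlapped by a small margin (log2 fold change -0.13). The vesicle release genes *unc-13* and *Cadps* were above the controls on 2 arrays each. *unc-13* had 4.11 and 11.6 in the mutant and 11.9 and 8.09 in WT, and *Cadps* 5.64 and 14.6 against 8.30 and 11.2. The mutant arrays of *Cadps* lay on both sides of the WT values, and for *unc-13* the groups overlapped. The GABA transporter gene *Gat*, above the controls on 3 arrays, had 6.32 and 11.9 against 9.97 and 12.7, and *Syt7*, a synaptotagmin, stayed below the controls on all 4 arrays.

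Markers of neurons were read beside these genes. Of 9 neuronal genes with a probe set 3 were above the controls on all 4 arrays and 5 on none, *elav* among the latter. Their summed intensity was 126 and 164 in the mutant and 203 and 206 in WT. The lower sum came from 2 of the 3 brighter genes. *nSyb*, a synaptic vesicle protein gene, had 41.4 and 51.1 against 79.5 and 73.9 (log2 fold change -0.58, standard error 0.12, adjusted p = 0.690 from limma), and *CadN*, the N-cadherin gene, 45.7 and 67.9 against 87.9 and 94.1. The other, the active zone gene *brp*, had 16.0 and 23.1 against 19.1 and 18.4, with a log2 fold change of 0.03. Over the 9 genes the median log2 fold change was -0.03. Without overlap, 2 of the 9 were lower and 2 higher, against 26.4% and 9.15% of all genes. The 2 higher, *Rdl* and *ChAT*, were at or near background. The part of such cells in the values of *Cals* and the other synaptic genes was not tested.

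The guidance receptor and ligand genes were all above the controls. *Eph*, a receptor tyrosine kinase, had 39.4 and 65.0 in the mutant and 59.0 and 78.9 in WT. *Ephrin*, its membrane-bound ligand, had 35.1 and 45.4 against 51.6 and 57.2. The groups overlapped for the receptor and not for the ligand, with log2 fold changes of -0.33 for each (standard errors 0.23 and 0.13, adjusted p = 0.809 and 0.703 from limma). Without *nsr* mutant 1 the value was -0.06 for *Eph* and -0.20 for *Ephrin*. *PlexB*, a semaphorin receptor, had 9.62 and 32.1 in the mutant and 26.7 and 22.8 in WT, so that the mutant arrays lay on both sides of WT. Its other 3 probe sets had log2 fold changes of -0.29, -0.05 and 0.15, the last not above the controls on any array. *nsr* mutant 1 was below *nsr* mutant 2 in all 4 of them.

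Of the 3 ligands of the TGF-beta family, *mav* was above the controls on all 4 arrays, at 9.29 and 18.6 in the mutant and 17.7 and 26.5 in WT (log2 fold change -0.36, standard error 0.20, adjusted p = 0.772 from limma). *nsr* mutant 2 lay between the WT arrays, and without *nsr* mutant 1 the log2 fold change was -0.13. *myo*, which encodes myoglianin, and *Actbeta*, an activin, were not above the controls on any array. For these 2 genes the mutant values were both below the WT values, at 0.09 and 4.04 against 4.60 and 6.97 for *myo* and 2.36 and 3.84 against 5.09 and 4.25 for *Actbeta*. Such values have no order that can be told from background.

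All 3 measured signalling adaptor and kinase genes had both mutant values below both WT values, as had 26.4% of all genes. *Slip1*, named for its binding to the Slowpoke potassium channel, had 51.7 and 92.4 in the mutant and 98.4 and 125 in WT (log2 fold change -0.57, standard error 0.26, adjusted p = 0.724 from limma), or -0.23 without *nsr* mutant 1. *Crk*, an adaptor between receptor tyrosine kinases and the cytoskeleton, had 329 and 414 against 421 and 440.5, a log2 fold change of -0.21. On the log2 scale its *nsr* mutant 2 value differed from the mean of WT by -0.05. *Asator*, a kinase of the tau tubulin kinase family, had 7.32 and 6.29 against 7.67 and 11.2, and was above the controls on 2 arrays.

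Cytoskeletal and muscle genes differed among themselves. *Ank*, the ankyrin that ties membrane proteins to spectrin, had 68.8 and 90.0 in the mutant and 94.5 and 123 in WT (log2 fold change -0.39, standard error 0.17, adjusted p = 0.722 from limma). Its other probe set stayed at background. *Zyx*, the focal adhesion protein zyxin, had 118 and 185 against 179 and 197, with *nsr* mutant 2 inside the range of WT. Its log2 fold change was -0.31, and -0.02 without *nsr* mutant 1. *bt*, the giant muscle protein projectin, had 29.4 and 57.6 against 33.4 and 52.3, and its log2 fold change of -0.01 had either sign across the settings tried. The 7 muscle markers with a probe set were above the controls on all 4 arrays, with summed intensities of 321 and 525 in the mutant and 378 and 447 in WT. The first array of each genotype was the lower in *bt* and in the summed muscle markers. It was also the lower for most genes, in 8628 of 11983 in the mutant and in 9316 in WT. The part of muscle cells in the values of *bt* was not tested. *CG33521* was not above the controls on any array.

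In the last group, *Rad23*, which acts in nucleotide excision repair and in handing ubiquitinated proteins to the proteasome, had 557 and 680.1 in the mutant and 679.8 and 845 in WT (log2 fold change -0.29, standard error 0.16, adjusted p = 0.764 from limma). *nsr* mutant 2 and WT 1 were equal to within 1 unit of intensity. *yellow-h*, of the *yellow* family, had 28.4 and 44.6 against 35.6 and 48.0, where the groups overlapped. *Thd1*, a thymine DNA glycosylase, had 4.40 and 5.73 against 8.55 and 8.17, and did not exceed the controls on any array.

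Of the 31 genes 13 were read by probe sets whose names end in _s_at, a class in which probes may also match other transcripts. *MED26*, *Cals*, *Ank*, *Eph*, *Ephrin*, *Zyx* and *Crk* are among them, and *ci*, *Slip1*, *mav* and *bt* are not. For 6 of the 31 genes more than 1 probe set was present, and the brightest by its mean intensity on the 4 arrays stood for the gene. The other 2 probe sets of *PMCA* had log2 fold changes of -0.23 and -0.14, the second not above the controls on any array, and the set used -0.13, while the second set of *Cadps* had -0.20 and the one used 0.00.

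A further 34 genes of chromosome 4 had a probe set of their own. None passed the test, 26 (76.5%, against 65.2% of all genes) had a log2 fold change below 0, and their median was -0.15. Mutant and WT values did not overlap, with the mutant lower in 13 (38.2%, against 26.4% of all genes) and higher in 3 (8.82%, against 9.15%). The lowest log2 fold change was that of *4E-T*, an eIF4E-binding repressor of translation, at 53.1 and 89.6 in the mutant and 107 and 136 in WT (log2 fold change -0.68, standard error 0.24, adjusted p = 0.690 from limma). The translation factor *eIF4G1* had 61.9 and 81.8 against 92.1 and 122, and *Gyf*, a GYF domain protein gene, had 218 and 287 against 314 and 356. *CG1674* and the kinase gene *Dyrk3* had log2 fold changes of -0.36 and -0.24. *Rnf11*, a RING finger gene, went the other way, at 36.1 and 40.4 in the mutant and 22.6 and 23.0 in WT. This difference of 0.48 on the log2 scale (standard error 0.10, adjusted p = 0.690 from limma) was the highest of the 65 chromosome 4 genes measured. The other, dimmer probe set of *Rnf11* had 12.9 and 18.4 against 14.9 and 26.6, with a log2 fold change of -0.20.

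The 5 long arms gave the background for chromosome 4. Their median log2 fold changes were -0.07 for X and -0.06 for each of 2L, 2R, 3L and 3R, over 1873 to 2974 genes, and that of all 65 chromosome 4 genes was -0.15. The 4 Y genes with a probe set of their own had a median of -0.66, with -0.95 on *nsr* mutant 1 and -0.34 on *nsr* mutant 2. On *nsr* mutant 1 against the mean of WT the medians were between -0.10 and -0.11 for the long arms and -0.27 for chromosome 4. On *nsr* mutant 2 they were between -0.03 and -0.00 for the long arms and -0.04 for chromosome 4. The gap between chromosome 4 and the long arms was thus seen mainly on *nsr* mutant 1. There the median was -0.37 for the 31 listed genes and -0.17 for the 34 others. On *nsr* mutant 2 these medians were -0.05 and -0.04. With array medians centred the 31 genes had a median of -0.08 and all genes 0.01, and with quantile normalization -0.11 and 0.01. The mutant values were both below the WT values in 12 of the 31 (38.7%, against 19.5% of all genes) with medians centred, and in 13 (41.9%, against 21.4%) with quantile normalization. They were both above in 3 and 2 of the 31, against 21.8% and 22.9% of all genes.

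**Figure D3:**
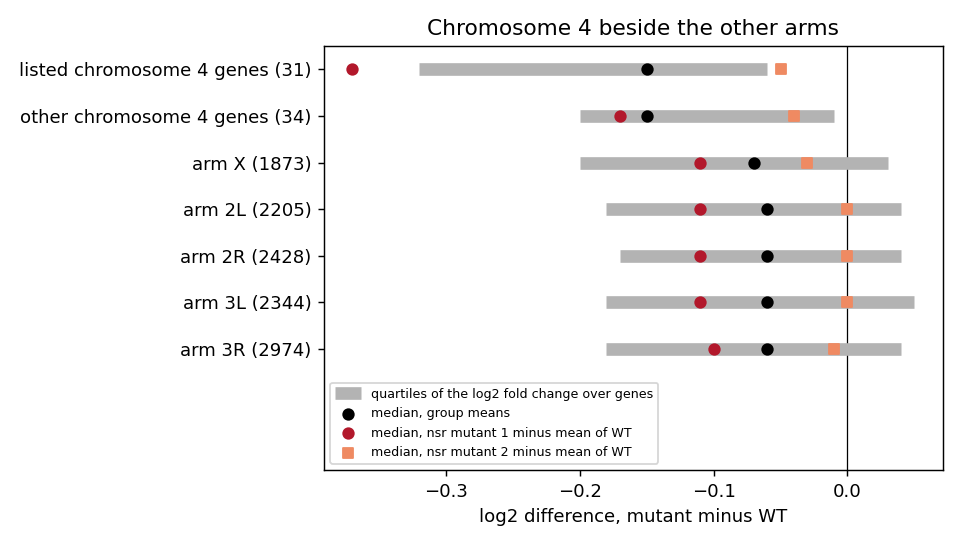
Median log2 difference between mutant and WT for the 31 listed chromosome 4 genes, the 34 others and the 5 long arms, with the number of genes in brackets. Black points are group means, red circles *nsr* mutant 1 and orange squares *nsr* mutant 2 against the mean of WT, and grey bars are quartiles over genes. The red circle of the listed genes is at -0.37 and those of the long arms lie at -0.10 or -0.11.

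Chromosome 4 genes are long, and gene span and level were read beside the fold change. The median span was 11301 bases for the 31 genes and 2263 for all genes in the gene table of genome release 6. Over 11829 genes of other chromosomes the Spearman correlation of span with log2 fold change was -0.22, while over the 31 genes it was 0.48. Mean intensity had a correlation of -0.70 with log2 fold change over the 31 genes and of -0.14 over the others. These correlations are across genes that share the same 4 arrays, and dim genes are held near 0 by the pseudocount. Among the 31, the dimmer genes were the longer. Their median span was 19554.5 bases at or below the median level of all probe sets, and 9332 above it. Among genes of 5 to 15 kb above the median level, 9 of the 31 genes had a median log2 fold change of -0.39, 7 other chromosome 4 genes -0.33, and 1241 genes of other chromosomes -0.15. Below 5 kb and above the median level, 4 of the 31 genes had -0.25, 6 other chromosome 4 genes -0.08, and 6099 genes of other chromosomes -0.06. At 15 kb or more the 2 of the 31 above the median level, *bt* and *PMCA*, had a median of -0.07 and 3 other chromosome 4 genes -0.06, against -0.18 for 563 genes of other chromosomes. At or below the median level, 5 of the 31 at 5 to 15 kb had -0.11 and 11 at 15 kb or more -0.07. At the same spans 9 other chromosome 4 genes had -0.15 and 8 had -0.16. Genes of other chromosomes had -0.04 and -0.05 there. The part of gene length in these values was not tested beyond these medians. Ratios of 5′ to 3′ control signal, a measure of RNA integrity, were 0.745 and 0.687 for actin in the mutant and 0.823 and 0.783 in WT. For GAPDH they were 0.598 and 0.592 against 0.637 and 0.545. For *eIF-4a* they were 0.321 and 0.355 against 0.348 and 0.367, and for the small-subunit ribosomal RNA 0.498 and 0.539 against 0.519 and 0.564. *nsr* mutant 1 had the lowest ratio of the 4 arrays in these last 2 controls and not in actin or GAPDH. The part of RNA integrity in the chromosome 4 values was not tested.

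Transcripts of the proteins that act on chromosome 4 were read last. *Pof* itself had 2465 and 2648 in the mutant and 2570 and 2790 in WT, with a log2 fold change of -0.07 (standard error 0.10, adjusted p = 0.932 from limma). Of 13 listed regulators 9 had a probe set and none passed the test, with a median of -0.07. *egg* had no probe set of its own and was not analysed here. The gene of HP1a had 587 and 629 against 529.7 and 638, where the groups overlapped. *HP1b*, a related chromodomain protein gene, had 60.9 and 75.2 against 86.9 and 90.7, a log2 fold change of -0.32 (standard error 0.12, adjusted p = 0.698 from limma) with no overlap. Of the 9 regulators, 2 were lower without overlap and 0 higher, against 26.4% and 9.15% of all genes. The second was *HP5*, above the controls on 1 array.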

How the data were processed

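Total RNA of *nsr* mutant and WT testes was amplified, labelled with biotin and hybridised to 1-colour arrays, 2 per genotype. The authors deposited 1 linear intensity per probe set and array. Their probe summary, background correction and scaling between arrays are left unstated in the paper and the labels, and the values were taken as they stand. Of 18952 probe sets 183 controls were left out. The array annotation names a single gene for 13647 probe sets, of which 13544 were matched by gene ID to a table of genome release 6. No coordinate was used other than gene order and span.

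The comparison used limma 3.58.1 (lmFit, then eBayes) under R 4.3.3, on log2(intensity + 16), two-sided, without covariates. Benjamini-Hochberg adjustment ran over 18769 probe sets, and an adjusted p under 0.05 was a call. The methods of the paper name SAM, which was not used here. The limma step was tested on simulated data. Summaries were made in Python 3.11.15 with pandas 2.3.3, numpy 2.4.6 and scipy 1.17.1, and plots with matplotlib 3.10.9. Precision is limited by the 2 arrays per genotype.

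The genes, role groups, marker lists and tests were chosen with earlier results of these data known. The rule for named genes asked for values on every array for *nsr*, genes with an unadjusted p under 0.05 and the 6 largest differences. It also asked for the brightest and dimmest gene of each role group. Genes whose mutant arrays differ by over 0.5 on the log2 scale were included. So were up to 6 other chromosome 4 genes with the smallest p, *Pof* and *egg*. Values on every array were left out for the dim genes *onecut*, *Syt7* and *CG33521*, and for *CG1674* and *Dyrk3*. Other genes described, *nSyb*, *HP1b* and the gene of HP1a among them, were picked with their values in view. The alternatives were a pseudocount of 1 or 64, array medians centred, quantile normalization, leaving out probe sets at or below the median level, an intensity trend in the prior, a block for the replicate number, fits without each array in turn, and averaging the probe sets of each gene. The cyst and hub, accessory gland and fat body lists had medians of -0.10, 0.20 and 0.02, with no gene called.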

Additional observations from a re-analysis of the deposited data

How the results depend on the processing

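The number of chromosome 4 genes called was 0, and stayed 0 with either pseudocount, quantile normalization, an intensity trend in the prior, all probe sets of a gene, and without any 1 array. It was 1 with array medians centred and 2 with probe sets at or below the median level left out, where 15 of the 31 genes were measured. Their median log2 fold change of -0.15 was -0.42 with a pseudocount of 1 and ranged from -0.37 to -0.05 without 1 array, -0.05 being the value without *nsr* mutant 1. The median difference from all genes was -0.09, or -0.32 with a pseudocount of 1, and ranged from -0.26 without *nsr* mutant 2 to -0.04 without *nsr* mutant 1, with -0.15 without WT 2. Without *nsr* mutant 1 the log2 fold change was -0.23 for *Ank*, -0.28 for *ci* and -0.15 for *Rad23*, and without WT 2 it was -0.22, -0.47 and -0.14. The median for *nsr* mutant 1 was -0.68 and -0.12 with pseudocounts of 1 and 64 and -0.58 when probe sets at or below the median level were left out. It was -0.25 with array medians centred and -0.21 with quantile normalization. A larger pseudocount draws dim genes towards 0 by its construction. For 20 of the 31 genes the sign was the same in every setting tried.

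The other 11 turned sign in at least 1 setting. *CG33521* was 0.06 with medians centred and 0.03 with quantile normalization, and *bt* 0.00 with a pseudocount of 64, 0.06 with medians centred and 0.09 with quantile normalization. *Cadps* was -0.07 with a pseudocount of 1 and -0.10 with all its probe sets, and with medians centred *sv* was 0.00 and *toy* 0.02. Without 1 array the ranges were -0.10 to 0.08 for *CG33521*, -0.25 to 0.25 for *Cadps*, -0.29 to 0.03 for *Gat*, -0.67 to 0.24 for *PlexB*, -0.36 to 0.34 for *bt* and -0.01 to 0.07 for *onecut*. They were -0.16 to 0.02 for *sv*, -0.27 to 0.17 for *toy*, -0.37 to 0.09 for *unc-13*, -0.37 to 0.08 for *yellow-h* and -0.00 to 0.10 for *zfh2*. In fits without 1 array the lone array of a genotype is assumed to vary like the other genotype.

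No source says whether the replicate numbers stand for anything shared between the genotypes. *nsr* mutant 1 was below *nsr* mutant 2 in 8628 of 11983 genes, and WT 1 below WT 2 in 9316. Differences between replicates 1 and 2 had a correlation of 0.15 between the genotypes over 18769 probe sets. That correlation leaves out any shift common to a whole array. With the replicate number as a block the median of the 31 genes was -0.15 and 0 were called, with 2 probe sets called over the whole array against 1 without it.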
